A study of Homo sapiens with 148 samples.

Results

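The start and the end of pancreatic differentiation were compared here: undifferentiated human embryonic stem cells (hESCs) against the islet-like organoids made from them, called SC-β organoids after the β cells they are meant to contain. The genes described are those whose mean level reached 10 TPM at either end (TPM counts transcripts, corrected for their length and for sequencing depth), after entries that shared a gene name were added together. This rule kept 11485 of the 49085 names in the table, or 23.4%. Of these, 7417 reached 10 TPM at both ends, 745 in hESCs only and 3323 in SC-β organoids only. The member closest to the limit on the inside had 10.0012 TPM and the name closest on the outside 9.9951 TPM.

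All cells came from H9, an established hESC line (also called WA09) that was used without any genetic change, so the comparison rests on 1 genetic background. The hESCs are labelled as undifferentiated, and the line was kept on Geltrex in STEMPRO medium. Before the protocol began, cells were made into spheroids in mTeSR1 medium with Y27632. Whether these hESCs were attached or in spheres when RNA was taken is not stated for the RNA-seq samples. The SC-β organoids were harvested on day 35 of a protocol run on rotating spheroids, after definitive endoderm (DE, day 4), primitive gut tube (PGT, day 7) and pancreatic progenitors (PP, day 14). Activin A with CHIR99021 opened the protocol, KGF came next, then retinoic acid, Sant1, LDN and PdBU, and finally the inhibitors XXI and Alk5i II with betacellulin and T3. Medium and stage change together between the ends and cannot be told apart.

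Pluripotent cells are held undifferentiated by POU5F1, SOX2 and NANOG together with Nodal and FGF signals. Activin and WNT signals turn them into definitive endoderm, the germ layer that forms the gut tube, liver and pancreas, and retinoic acid then helps to direct foregut cells to a pancreatic fate. Islet endocrine cells store peptide hormones in dense granules and release them when membrane channels respond to glucose.

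The labels list 2 RNA-seq samples for each stage, but the table holds 1 mean for each, so no replicate error, interval or test can be given for any value below, and every difference is a description of those means. TPM is a level per transcript length, so levels can be set beside each other between genes. Differences are log2((TPM + 1) / (TPM + 1)), SC-β organoids over hESCs, and a gene is called higher or lower from 2-fold on that scale. Genes listed at 0 at 1 end are given by their levels alone. In bulk RNA, fewer cells of a type and less RNA per cell cannot be told apart.

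Small structural RNAs made up 43.0% of all TPM in hESCs and 41.6% in SC-β organoids, and mitochondrially encoded genes 2.23% at both ends. The bulk of genes was not level between the ends. For 14605 names at 1 TPM or more at all 5 stages, levels were set against the geometric mean over the stages. The median log2 ratio to that mean was -0.31 in hESCs and 0.19 in SC-β organoids, a difference of 0.50. The median log2 ratio of SC-β organoids to hESCs over the 11485 members was 0.46. Stages were therefore also rescaled to equal medians, and the counts of a gene list after this rescaling are given beside the deposited ones wherever they moved.

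The markers of the ends followed the labels. POU5F1, the central pluripotency factor, stood at 1449 TPM in hESCs, next 417 in DE, 25.4 in PGT, 0.543 in PP, then 0.377 in SC-β organoids. GCG, the glucagon gene of α cells, was listed at 0 in hESCs, DE and PGT, then at 16.5 TPM in PP and 2793 at the end. INS, the insulin gene of β cells, had the same course at lower levels, with 6.93 TPM in PP and 298 at the end. The organoids named for β cells thus held more GCG than INS RNA in these means.

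Among the members, 3712 were at least 2-fold higher in SC-β organoids (32.3%) and 1084 at least 2-fold lower (9.44%), and the remaining 6689 lay within 2-fold. Higher genes made up 77.4% of the changed ones. After rescaling, 2214 were higher and 2242 lower, a share of 49.7%. All 2214 were among the 3712, and all 1084 were among the 2242, so the balance of gains and losses moved with the scaling. At 4-fold, 1504 were higher and 385 lower, and at 16-fold 302 and 110. Switches between under 1 TPM and at least 10 TPM were found for 575 genes toward SC-β organoids and for 118 in the other direction. The scatter of levels at the ends shows both groups, with many points along its left edge where hESCs had almost no transcript.

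**Figure D1:**
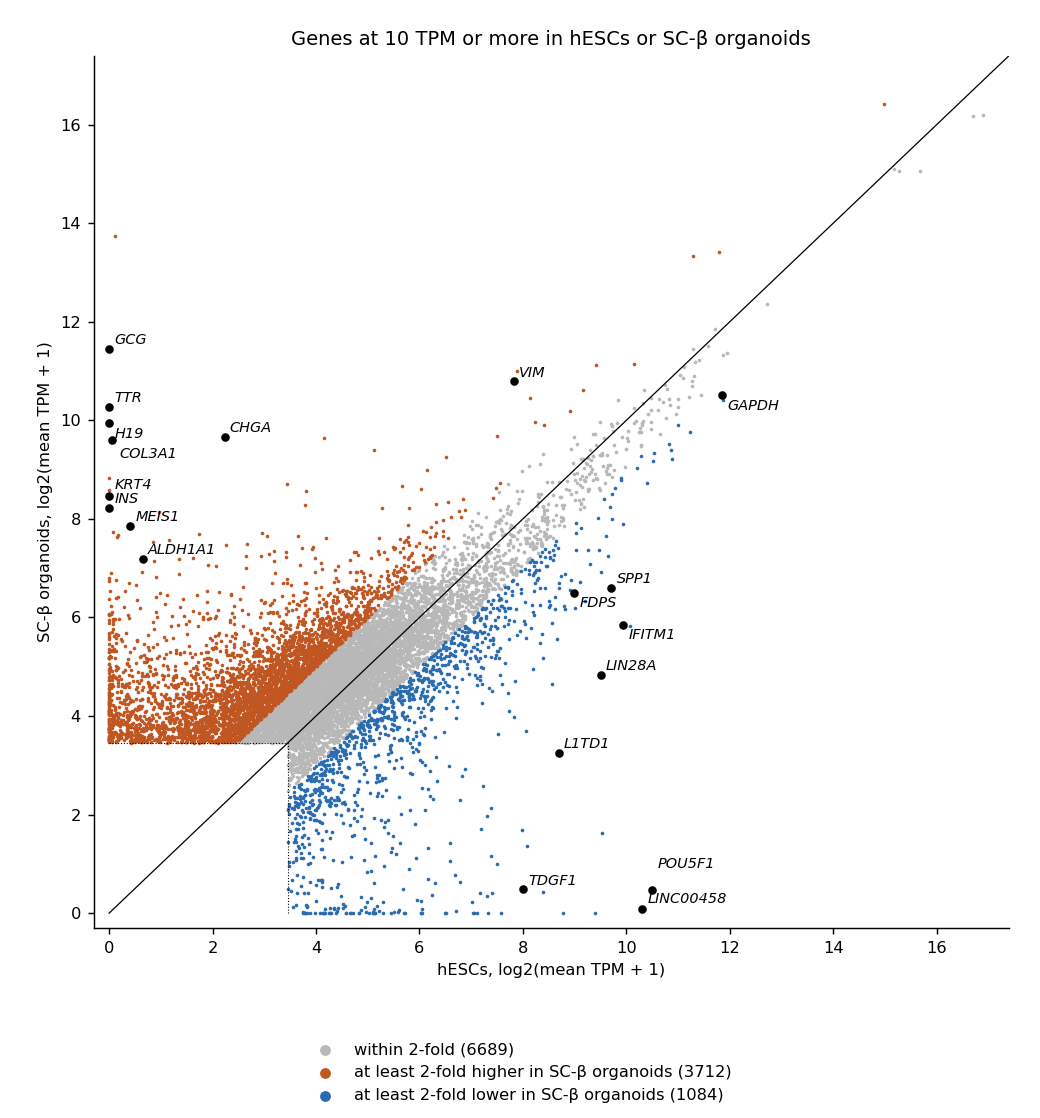
Each point is 1 of the 11485 members, plotted by log2(mean TPM + 1) in hESCs (horizontal axis) and in SC-β organoids (vertical axis), with the diagonal marking equal levels and dotted lines the 10 TPM limit. The 3712 higher genes lie above the diagonal and include GCG and TTR on the left edge, and the 1084 lower genes include POU5F1 and LINC00458 at the bottom right.

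The 25 genes with the largest positive ratio, leaving out clone names and structural RNAs, belonged to several tissues. Islet genes among them were GCG, INS, SST and CHGA. TTR and SERPINA1 encode plasma proteins made by liver. COL3A1, POSTN and PRRX1 are genes of connective tissue, and KRT4, KRT13, S100A8, S100A9 and MAL are known from stratified squamous epithelium. MEIS1 and MEIS2, homeobox partners of HOX proteins, went from 0.325 and 0.111 TPM to 229 and 197 TPM. H19, an imprinted noncoding RNA, was listed at 0 in hESCs and reached 987 TPM in SC-β organoids. In 12 of these 25 genes the PP to SC-β step held the largest part of the change.

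The 25 genes with the largest negative ratio included many genes of the pluripotent state. LINC00458, a long noncoding RNA of hESCs, stood at 1269.9 TPM in hESCs and at 0.0615 at the end, a log2 ratio of -10.23, next to -10.04 for POU5F1. Nodal ligands, the co-receptor and antagonists were among them, namely NODAL, TDGF1, LEFTY1, LEFTY2 and CER1. The noncoding RNAs LINC00678, LINC01405, LINC01108, LINC01356 and ESRG were also on the list. The DE to PGT step led in 15 of these 25 genes and the hESCs to DE step in 8.

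Along the path, the steps were compared by the change of log2(TPM + 1), and the step with the largest share of a gene's change was called its leading step. The steps differ in length, with 4 days to DE if hESCs are counted as day 0, 3 to PGT, 7 to PP and 21 to SC-β organoids. The step to DE may also hold the change to spheroids and their medium, which was not tested. Of the higher genes, 2131 were led by the step to DE (57.4%), 269 by DE to PGT (7.25%), 339 by PGT to PP (9.13%) and 973 by PP to SC-β (26.2%). After rescaling the share of the step to DE was 43.9% and that of the last step 28.0%. Of the lower genes, 551 were led by the step to DE (50.8%), 289 by DE to PGT (26.7%), 135 by PGT to PP (12.5%) and 109 by the last step (10.1%). After rescaling these shares were 65.0%, 14.7%, 6.91% and 13.4%, so the share of DE to PGT among the lower genes depended on the scaling.

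In the deposited scaling, gains thus clustered at the 2 outer steps of the path. The mean change of the higher genes was 1.05 in the step to DE, 0.07 and 0.08 in the middle steps and 0.96 in the last step, on the log2 scale. These means include a shift of the bulk of genes. Over the 14605 names used for rescaling, the median log2 ratio to the geometric mean rose from -0.31 to 0.17 at the step to DE. It fell to 0.02 and then -0.09 at the middle steps and rose to 0.19 at the last step. After rescaling, the outer steps still led more of the higher genes, 43.9% and 28.0% against 13.1% and 14.9%. Losses in the deposited scaling fell mostly in the steps to DE and PGT, with mean changes of -1.03, -0.74, -0.19 and -0.15. The leading step held a median of 76.8% of the change in higher genes and 77.7% in lower genes. Few genes moved in 1 direction throughout, 426 of the higher (11.5%) and 170 of the lower genes (15.7%). The plot of leading steps shows how unlike the gene groups were in this respect.

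**Figure D2:**
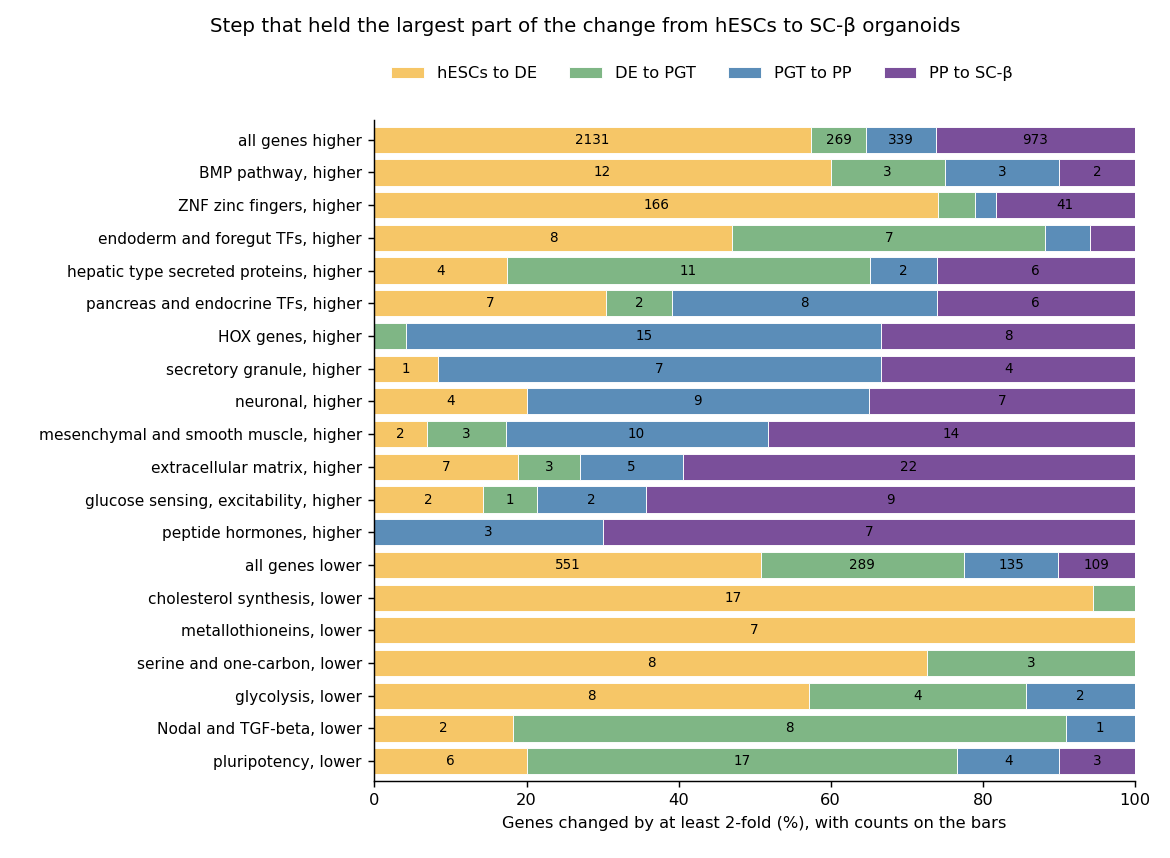
Bars give the share (%) of genes changed by at least 2-fold whose largest part of the change fell in each of the 4 steps, with counts on the bars, for all higher genes, 12 lists of higher genes, all lower genes and 6 lists of lower genes. More than any other step, PP to SC-β led the peptide hormones, matrix and excitability genes, PGT to PP the HOX and granule genes, DE to PGT the hepatic type genes (11 of 23) and hESCs to DE the cholesterol genes (17 of 18).

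Gene groups were then followed as 52 lists, counting all members found whatever their level. Over all 49085 names, 22.2% were at least 2-fold higher and 3.70% at least 2-fold lower, and these shares are the background for the list counts. For lists whose genes nearly all reached 10 TPM, the shares over the 11485 members, 32.3% and 9.44%, are the nearer background. Both backgrounds are from the deposited scaling. Rescaling took the higher genes at that level from 3712 to 2214 and the lower ones from 1084 to 2242. Rescaled list counts are to be read beside that move. Leading steps of the lists are given in the deposited scaling only. Counts of higher genes led by the step to DE or the last step are to be read beside the rise of the bulk of genes at these steps. The list medians are likewise to be read beside the median of 0.46 over the members.

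Pluripotency genes had the lowest median of the 52 lists. Of 37 genes found, 30 were lower and 2 higher (33 and 0 after rescaling), with a median log2 ratio of -3.91. The losses were not simultaneous, since 6 were led by the step to DE, 17 by DE to PGT, 4 by PGT to PP and 3 by the last step. PRDM14, a repressor of differentiation in pluripotent cells, and ESRG, a noncoding RNA, were low already in DE, at 4.75 and 3.13 TPM against 47.3 and 129 TPM in hESCs. FGF2, the growth factor that sustains hESCs, followed the same early course from 56.6 to 6.82 TPM.

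TDGF1, the Nodal co-receptor, was kept through DE and was then low, with 255, 293, 5.61, 0.545 and 0.396 TPM from hESCs to SC-β organoids. DNMT3B, a de novo DNA methyltransferase, went down by stages, with 375, 186, 51.7, 20.8 and 24.1 TPM. LIN28A, which blocks maturation of let-7 microRNAs, was among the last to go, with 724, 772, 516, 169 and 27.5 TPM. DPPA4 still had 77.2 TPM in PP before 12.01 in SC-β organoids. SOX2, also a factor of foregut and neural cells, was not lost, since it passed through 1.70 TPM in PGT and stood at 50.9 TPM in SC-β organoids against 133 in hESCs. The 2 higher members were KLF4 and PRDM1, at 12.8 and 6.66 TPM.

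The Nodal and TGF-β list was split. Of 35 genes, 18 were higher and 11 lower (17 and 11 after rescaling). The lower ones included the Nodal ligands NODAL and GDF3 and the antagonists LEFTY1, LEFTY2, CER1 and FST, and TGFB1 was just past the limit at 5.995 against 2.49 TPM. CER1 peaked in DE at 1483 TPM, between 269.7 TPM in hESCs and 1.58 in SC-β organoids. The higher ones included the TGF-β ligands TGFB2 (0.0917 to 83.4 TPM) and TGFB3 (1.10 to 27.1 TPM), the receptors TGFBR1 and TGFBR2, and TGFBI, a matrix protein induced by TGF-β, at 177 TPM against 3.77. FGF genes also divided, with 6 higher and 9 lower of 28 (6 and 11 after rescaling) and a median that turned from 0.07 to -0.40 on rescaling. FGFR2, the receptor for KGF, was at 162 TPM against 35.9 in hESCs, while FGF2, FGF8, FGF17 and the feedback genes ETV4 and SPRY4 were lower.

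Cholesterol synthesis genes were lower in near unison, and nearly all of the difference lay in the step to DE. Of 21 genes found, 18 were at least 2-fold lower, none was higher, and 17 of the 18 were led by hESCs to DE. The median level was 153 TPM in hESCs, then 31.0, 40.9, 54.5 and 36.1 TPM at the later stages. FDPS, which makes farnesyl diphosphate, had 509.5 TPM in hESCs and 121, 89.8, 176 and 89.7 TPM later. HMGCS1, an enzyme near the start of the pathway, had 392 TPM in hESCs and 71.6, 65.2, 104 and 83.8 later. FDFT1, which makes squalene, had 375 TPM in hESCs and 75.7, 73.3, 105.3 and 58.5 later. Every later stage was thus below hESCs in these 3 genes, with a small second peak in PP.

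Beyond the pathway enzymes, INSIG1, which retains the regulator SCAP in the endoplasmic reticulum, went from 98.8 to 18.7 TPM. SREBF2, the transcription factor of the pathway, differed less, with 72.4 against 58.6 TPM. After rescaling 19 of the 21 were lower.

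Promoters of this list were read from RefSeq (GRCh38.p14), because its members moved together. The 250 bases before the start site were searched on both strands for CCAAT, the letters bound by NF-Y, and a gene counted if any of its windows held them. Of the 15 members with an entry, 13 held CCAAT (86.7%), against 37.0% of 27305 genes. TCACNCCA, written for sterol response elements, was found in 2 of the 15, against 3.92% of all. These 2 were MVK and SREBF2, with log2 ratios of -0.92 and -0.30, so neither was 2-fold lower. No 2-fold lower member with an entry held these letters. None of the letter strings searched here contains another. Motifs and printed stretches were chosen after the values were seen, and a match describes letters only. For a gene with several windows, match counts and printed stretches here and below come from the window with the most matches. Parts of the FDPS promoter (chr1:155308744-155308863, plus strand) and of the HMGCS1 promoter (chr5:43313448-43313567, minus strand) are shown because each stretch holds the letters more than once, 5′ to 3′ along the gene, with CCAAT or its reverse complement in capitals.
FDPS: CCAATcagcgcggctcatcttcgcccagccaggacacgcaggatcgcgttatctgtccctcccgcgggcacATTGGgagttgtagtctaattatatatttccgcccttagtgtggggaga
HMGCS1: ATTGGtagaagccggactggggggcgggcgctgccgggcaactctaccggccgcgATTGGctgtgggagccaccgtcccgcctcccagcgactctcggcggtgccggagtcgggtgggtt

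Metallothioneins, small proteins that bind zinc and copper, had the same timing. Of 9 genes found, 7 were lower, and all 7 were led by the step to DE. MT1X had 66.7 TPM in hESCs, next 6.87 in DE, 3.09 in PGT, 2.72 in PP, then 11.2 in SC-β organoids. MT2A had 14.99 TPM in hESCs and between 1.26 and 3.26 later. MT1G went from 20.3 to 0.444 TPM and MT1H from 13.1 to 0.107. None of these 4 genes was back at its level in hESCs at a later stage.

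The metal response element read by MTF1 was searched as TGCACNC or TGCGCNC on both strands. It was present in the promoters of all 3 metallothioneins with an entry, MT1H, MT1X and MT2A, and in 28.5% of all genes. In the other lists searched it was in 48.7% of S phase, 42.2% of mitosis, 40.0% of cholesterol and 22.2% of hormone promoters. MT1H held 8 matches, MT2A 7 and MT1X 4 in 250 bases. The stretches of MT2A (chr16:56608431-56608550) and MT1X (chr16:56682320-56682439), both on the plus strand of GRCh38.p14, are shown as examples, with matches on either strand in capitals.
MT2A: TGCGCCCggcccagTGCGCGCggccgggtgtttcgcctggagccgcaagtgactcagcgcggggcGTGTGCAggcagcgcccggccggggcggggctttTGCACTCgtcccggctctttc
MT1X: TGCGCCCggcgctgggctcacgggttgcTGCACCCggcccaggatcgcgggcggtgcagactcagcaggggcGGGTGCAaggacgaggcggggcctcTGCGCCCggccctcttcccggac

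Glycolysis genes were mostly lower, and genes of serine, one-carbon and nucleotide synthesis were lower in part, with less uniform timing. Of 23 glycolysis and lactate genes, 14 were lower and 1 higher (16 and 1 after rescaling), and 8 of the 14 were led by the step to DE. ENO1, the main enolase, went from 1877 to 594 TPM and HK1, a hexokinase, from 125 to 35.4 TPM, with 36.1 TPM already in DE. Of 26 serine, one-carbon and nucleotide synthesis genes, 11 were lower, 1 was higher and 14 lay within 2-fold (17 lower and 0 higher after rescaling). PSAT1 and MTHFD2, enzymes of serine synthesis and mitochondrial folate, went from 244 and 112 TPM to 45.9 and 22.8 in DE and 52.2 and 25.9 at the end. SLC7A5 and SLC3A2, the partners of an amino acid transporter, went from 228 and 417 to 14.9 and 103 TPM.

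Proliferation genes differed little between the ends in the deposited scaling, and their median levels were lowest in PGT. Of 52 genes of G2 and mitosis, 2 were higher and 5 lower, with a median log2 ratio of -0.06. Their median level was 57.7 TPM in hESCs, next 44.6 in DE, 23.7 in PGT, 48.3 in PP, then 50.2 in SC-β organoids. TOP2A, a topoisomerase of dividing cells, had 146 TPM in hESCs, 71.8 in PGT and 177 in SC-β organoids, and CDK1, the mitotic kinase, had 98.0, 43.6 and 79.8 TPM. HMMR, CKS1B, CKS2, PTTG1 and BUB1 were the lower members. Of 44 S phase genes, 3 were higher and 8 lower, among the latter MYBL2, MCM5 and CDC6. These counts moved with the scaling, to 1 higher and 14 lower for mitosis and to 2 and 16 for S phase after rescaling.

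Inhibitors of the cycle and G1 cyclins, counted as 1 list, were higher in part. Of 17 cyclin-dependent kinase inhibitors and G1 cyclins, 8 were higher and 2 lower (7 and 4 after rescaling). CDKN1C, an imprinted inhibitor, had 5.89 TPM in hESCs and 22.7 in SC-β organoids, and CCND2, a G1 cyclin, 78.3 and 201 TPM. CDKN1A, the inhibitor induced by p53, was lower, with 1.15 TPM in DE, 51.4 in PP and 23.4 at the end.

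Promoters of the mitotic genes were searched as well, since these genes dipped together. TTTGAA, the cell cycle homology region bound by the DREAM complex, was found in 25 of 45 mitosis genes with an entry (55.6%), in 1 of 39 S phase genes and in 16.1% of all genes. CCAAT was found in 35 of the 45 (77.8%). Stretches of CCNB2 (chr15:59105026-59105145) and CDK1 (chr10:60778358-60778477), plus strand of GRCh38.p14, are shown as 2 regulators of entry into mitosis. Each is the last 120 bases before the start site of the window used, with TTTGAA or its reverse complement in capitals.
CCNB2: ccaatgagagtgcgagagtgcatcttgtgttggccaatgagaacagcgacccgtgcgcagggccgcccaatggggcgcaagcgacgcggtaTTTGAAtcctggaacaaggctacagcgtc
CDK1: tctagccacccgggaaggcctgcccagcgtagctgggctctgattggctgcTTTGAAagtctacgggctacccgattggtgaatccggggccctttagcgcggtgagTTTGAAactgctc

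Peptide hormones were a late gain. Of 20 genes, 10 were higher and 1 lower (7 and 2 after rescaling), 3 of the 10 led by PGT to PP and 7 by the last step. The summed level of all 20 was 238 TPM in hESCs, of which NTS held 226. In SC-β organoids it was 3478 TPM, of which GCG held 2793. SST, of δ cells, had 48.1 TPM in PP and 203 at the end, and GAST, the gastrin gene, 9.57 and 66.1 TPM. PPY, of the pancreatic polypeptide cells, was at 15.1 TPM and GHRL, the ghrelin gene, at 12.7 TPM after 18.1 in PP. IAPP and UCN3, hormones of β cells, reached 1.83 and 0.88 TPM, under the limit of 10 TPM. NTS, the neurotensin gene, was the lower member, with 226 TPM in hESCs, 0.634 in PGT and 59.5 in SC-β organoids.

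TAAT, the core read by many homeodomain proteins, stood in 11 of 18 hormone promoters (61.1%) and in 52.7% of all, so its presence is near the background. Stretches of INS (chr11:2161210-2161329) and GCG (chr2:162152248-162152367), both on the minus strand of GRCh38.p14, are printed as promoters of the hormones that set the ends apart. Each is the last 120 bases before the start site of the window used, with TAAT or its reverse complement in capitals.
INS: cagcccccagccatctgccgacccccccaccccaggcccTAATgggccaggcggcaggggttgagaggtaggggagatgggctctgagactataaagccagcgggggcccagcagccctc
GCG: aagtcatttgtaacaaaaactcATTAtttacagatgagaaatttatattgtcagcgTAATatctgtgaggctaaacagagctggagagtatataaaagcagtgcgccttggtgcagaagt

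Granule genes were often led by an earlier step than the hormones. Of 19 granule and prohormone processing genes, 12 were higher and 3 lower (11 and 3 after rescaling), and 7 of the 12 were led by PGT to PP. CHGA, the core granin, had 3.70 TPM in hESCs, 0.438 in PGT, 215 in PP and 805 at the end. SCG2, another granin, had 15.7 TPM in PP and 60.4 at the end. CPE, the carboxypeptidase that trims prohormones, was already at 224 TPM in DE against 9.79 in hESCs. PCSK1 and PCSK2, the convertases that cut proinsulin and proglucagon, came late and low, at 8.52 and 11.4 TPM. SLC30A8, the zinc carrier of insulin granules, was at 0.11 TPM in PP and 27.1 at the end. SCG3, VGF and QPCT were lower.

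Genes for glucose sensing and excitability were mostly late, and those for exocytosis were spread over the steps. Of 27 glucose sensing and excitability genes, 14 were higher and 1 lower (13 and 2 after rescaling), and 9 of the 14 were led by the last step. ABCC8, the sulfonylurea receptor subunit of the ATP-sensitive potassium channel, had 4.27 TPM in PP and 38.3 at the end, and its partner KCNJ11 2.64 and 6.56 TPM. The calcium channel genes CACNA1C and CACNA1D stood at 19.4 and 13.4 TPM. SLC2A3, a glucose transporter, was the lower member, with 188 TPM in hESCs, 539 in PGT and 40.8 in SC-β organoids. Of 27 exocytosis genes, 13 were higher and 2 lower, SNAP25 among the former at 13.2 TPM, and these were 9 and 3 after rescaling. The step to DE led 4 of the 13, DE to PGT 1, PGT to PP 2 and the last step 6.

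Transcription factors of the pancreas and endocrine lineage were higher in 23 of 33 cases and lower in none, in both scalings. GLIS3, a zinc finger factor of β cell development, had 11.98 TPM in PP and 43.1 at the end. LMX1A, known from enterochromaffin cells and the midbrain, was under 1 TPM until PP and then at 32.2 TPM in SC-β organoids. NEUROD1, a factor that drives endocrine differentiation, was listed at 0 up to PGT, then at 4.16 and 21.0 TPM. ISL1 was early, with 9.36 TPM in DE, 58.3 in PGT and 18.9 in SC-β organoids. MAFA, the factor of mature β cells, stayed at 0.401 TPM in SC-β organoids against 1.25 in hESCs.

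Endoderm factors were higher at the end than at the start, and the gain came early. Of 23 genes, 17 were higher and 5 lower (15 and 5 after rescaling), 8 of the 17 led by the step to DE and 7 by DE to PGT. TBX3 went from 0.31 TPM in hESCs to 126 in PGT and 62.9 in SC-β organoids, and SOX9, of ductal and progenitor cells, from 0.374 to 25.2 TPM. HNF4A had 0.176, 19.7, 33.7, 3.90 and 5.60 TPM along the path, so most of its PGT level was gone at the end. EOMES, MIXL1 and SOX17, factors of the earliest endoderm, were lower at the end, for EOMES 12.5 TPM in hESCs, next 172 in DE and 0.0115 in SC-β organoids.

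Liver type secreted proteins were higher in 23 of 29 cases, with 11 of the 23 led by DE to PGT. TTR, the thyroxine carrier made by liver and islet α cells, was listed at 0 in hESCs, with 0.306 TPM in DE, 943 in PGT, 55.8 in PP, then 1229 in SC-β organoids. FGB, a fibrinogen chain, had 67.1 TPM in PGT, 22.8 in PP and 39.9 at the end. ALB, albumin, was late, with 0.649 TPM in PP and 39.3 at the end, as was AGT, with 2.85 and 66.0 TPM. APOE and APOC1 were the lower members, from 589 and 86.4 to 79.5 and 23.0 TPM. The courses plotted for 8 groups show the return of TTR and FGB after PP.

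**Figure D3:**
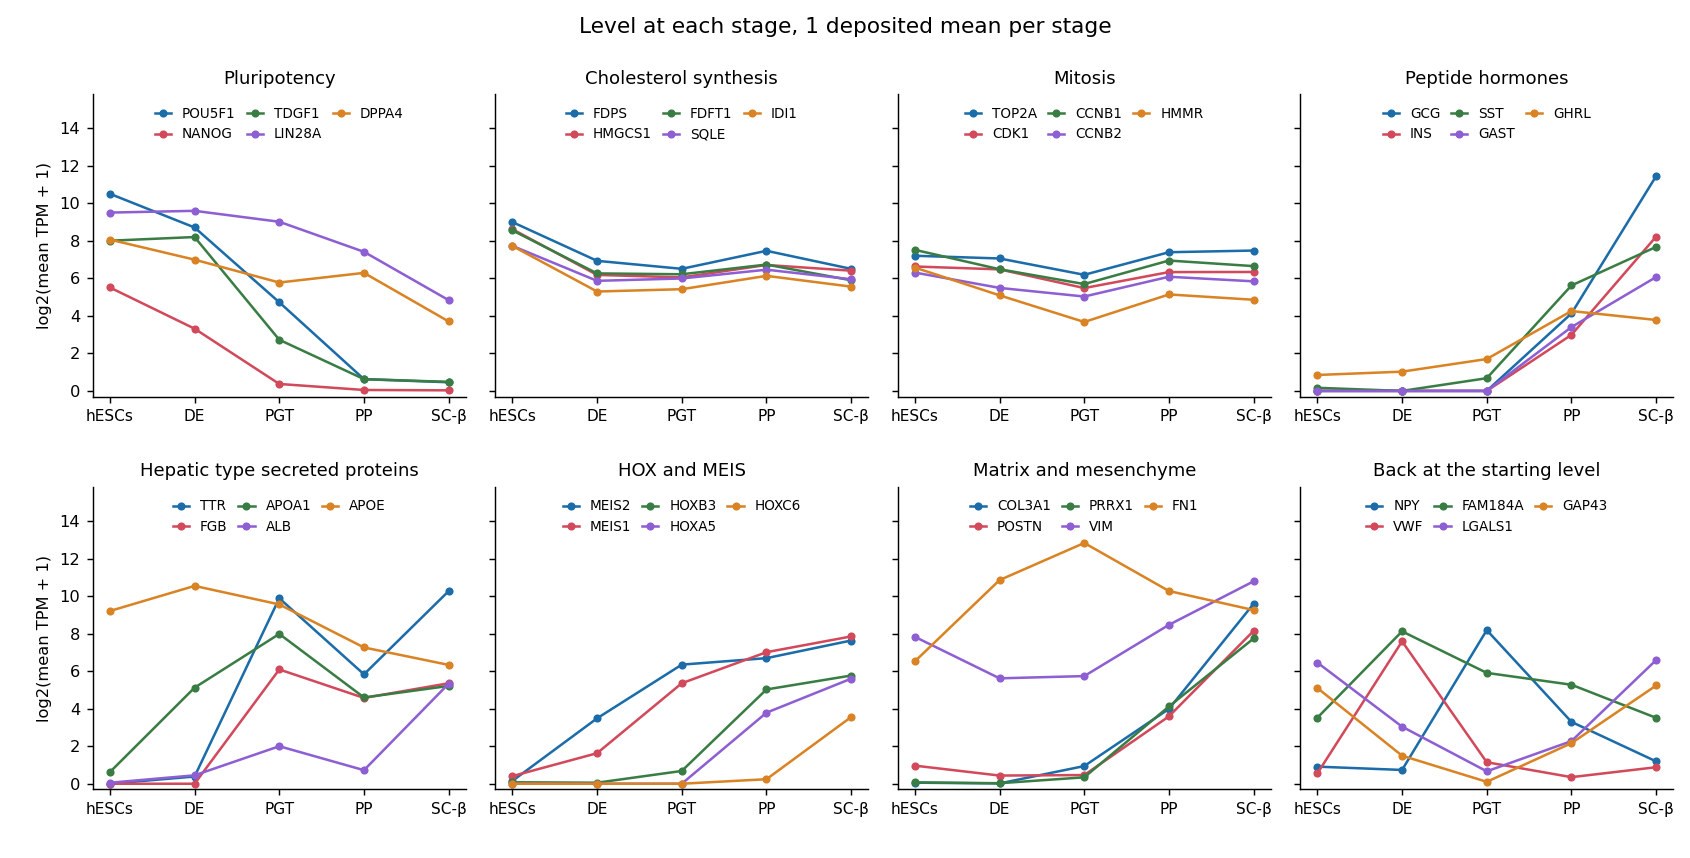
Lines join the deposited mean of each gene along the 5 stages from hESCs to SC-β organoids (horizontal axis, not to scale in days), as log2(mean TPM + 1) on the vertical axis, for 5 genes in each of 8 groups. Pluripotency and cholesterol genes go down at different steps, mitotic genes dip in PGT, hormone and matrix genes come up late, and NPY, VWF, FAM184A, LGALS1 and GAP43 end where they began.

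Markers of other cell types were present beside the endocrine genes, and their part in the endocrine results was not tested. Of 41 mesenchymal and smooth muscle markers found, 25 were at 10 TPM or more in SC-β organoids and 2 under 1 TPM (TCF21 and NKX2-3), and their summed level was 1421 TPM in hESCs and 3799 in SC-β organoids. Of 27 acinar and ductal genes found, 14 were higher and 1 lower (SPP1, 837 to 96.1 TPM), with 13 and 1 after rescaling, 11 were at 10 TPM or more in SC-β organoids and 10 under 1 TPM, the acinar enzymes CPA1, CPB1 and CTRB1 among the latter, with CELA3A listed at 0. Of 24 endothelial and blood markers only LYZ reached 10 TPM in SC-β organoids, and 17 were under 1 TPM, PECAM1, CDH5 and PTPRC among them, while 3 of the list were higher and 3 lower than in hESCs.

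Mesenchymal markers were higher in 29 of 41 cases and lower in 3 (27 and 5 after rescaling), with 10 of the 29 led by PGT to PP and 14 by the last step. PRRX1, a factor of limb and trunk mesenchyme, had 0.0505 TPM in hESCs, 16.4 in PP and 213 at the end. ZEB2, a repressor of E-cadherin, had 0.239 TPM in PGT, 65.3 in PP and 103 at the end. PDGFRA, a receptor of fibroblasts, had 2.34, 62.0, 11.9 and 205 TPM in hESCs, PGT, PP and SC-β organoids, so it was high on 2 occasions. VIM, vimentin, was at 226 TPM in hESCs and 1767 in SC-β organoids, among the 10 most abundant named genes there. The contractile genes TAGLN and CNN1 and the surface protein THY1 were the lower ones, for TAGLN 277 against 117 TPM.

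Matrix genes, which encode collagens and the proteins around them, were mostly late gains. Of 48 genes, 37 were higher and none lower, and 22 of the 37 were led by PP to SC-β. After rescaling 30 were higher and 1 lower. COL3A1, a fibrillar collagen, had 0.04 TPM in hESCs, 14.9 in PP and 771 at the end, and COL6A3 1.54, 1.63 and 144 TPM. POSTN, periostin, had 11.05 TPM in PP and 283 at the end. COL2A1, the collagen of cartilage, came earlier, with 92.9 TPM in PGT and 364 in PP, and 133 at the end. FN1, fibronectin, was highest in PGT, at 7276 TPM, against 90.8 in hESCs and 609 in SC-β organoids. The basement membrane collagens COL4A1 and COL4A2 differed by less than 2-fold between the ends.

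Neuronal genes were higher in 20 of 38 cases and lower in 3 (18 and 5 after rescaling), and their summed level was 833 TPM in hESCs and 744 in SC-β organoids. NCAM1, an adhesion molecule of neurons and endocrine cells, had 1.17 and 86.6 TPM at the ends, and NEFM, a neurofilament, 2.54 and 61.8 TPM. UCHL1, a deubiquitinase of neurons that hESCs also express, went the other way, from 512 to 72.5 TPM. Of 30 neural progenitor and glial genes, 12 were higher and 2 lower (9 and 2 after rescaling), with ZIC1 and PAX3 at 73.7 and 72.6 TPM, while SOX1, OLIG2, SOX10 and GFAP were under 1 TPM in SC-β organoids. Of 22 intestinal and enterochromaffin genes, 17 were higher and none lower (17 and 1 after rescaling), among them TPH1, the serotonin synthesis enzyme, at 14.2 TPM, and MUC2, of goblet cells, was under 1 TPM.

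HOX genes, which set position along the body axis, were near 0 in hESCs and present from PP on. Of 36 found, 24 were higher and none lower, 15 of them led by PGT to PP and 8 by the last step, and their summed level was 1.54 TPM in hESCs, next 0.683 in DE, 6.66 in PGT, 181 in PP, then 366 in SC-β organoids. Genes toward the anterior end of their clusters were among those with the higher levels, such as HOXB3 at 31.5 TPM in PP and 53.4 at the end and HOXA5 at 12.8 and 47.4 TPM. HOXC6 was led by the last step, from 0.181 to 10.8 TPM. Only 10 of the 36 reached 10 TPM at either end.

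In the lists of several signals, more genes were higher than lower. Of 25 BMP pathway genes, 20 were higher and 1 lower (15 and 2 after rescaling), and 12 of the 20 were led by the step to DE. ID1, a target of BMP, had 79.4 TPM in hESCs, 764 in PGT and 314 in SC-β organoids, and BMP7, a ligand, 8.78 and 44.3 TPM. Of 14 Hedgehog genes, 11 were higher and none lower (9 and 0 after rescaling). The co-receptors BOC and CDON had 185 and 169 TPM at the end against 0.806 and 12.3 at the start, the ligand SHH peaked in PGT at 32.6 TPM, and PTCH1, receptor and target, had 40.0 TPM in PGT, 9.04 in PP and 53.0 at the end.

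Of 21 retinoic acid genes, 14 were higher and 2 lower (11 and 2 after rescaling). ALDH1A1, a retinoic acid synthesis enzyme, had 136 TPM in PGT, 30.3 in PP and 145 at the end against 0.574 in hESCs, while CYP26A1, which breaks it down, had 392 TPM in DE and 2.68 at the end. Of 44 WNT genes, 29 were higher and 4 lower (25 and 5 after rescaling). The ligand WNT5A went from 1.72 to 64.3 TPM, the target AXIN2 from 16.6 to 81.9, and the antagonist SFRP1 stood at 476 TPM in DE and 141 at the end. The lower members were the receptors FZD5 (27.5 to 5.40 TPM) and FZD7 (78.7 to 37.9 TPM), with SFRP2 and DKK4. Of 24 Notch genes, 15 were higher and 1 lower (14 and 2 after rescaling), with HES1, a target, at 14.3 and 49.99 TPM.

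Of 27 imprinted genes found, 14 were higher and 2 lower (13 and 3 after rescaling). IGF2, the neighbour of H19, had 0.206 TPM in hESCs and 28.6 in SC-β organoids, with 21.2 in PP, and PLAGL1 0.245 and 41.6 TPM. DLK1 peaked in PGT at 208 TPM and stood at 18.7 at the end. SNRPN and SNURF, which share a transcript and cannot be cleanly separated, were lower, with log2 ratios of -2.38 and -1.40.

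Epithelial junction genes were mixed, with 10 of 37 higher and 8 lower, and after rescaling 7 and 14. CDH1, E-cadherin, differed by less than 2-fold, at 87.4 and 71.3 TPM, whereas CDH11, a mesenchymal cadherin, went from 5.36 to 179 TPM and CDH6 from 0.835 to 141. KRT8 and KRT18, keratins of simple epithelia, were lower, at 209.6 and 113 TPM against 517 and 428. Other such keratins were not lower. KRT7 went from 1.53 to 19.7 TPM, and KRT19, at 126 and 231 TPM, lay within 2-fold. ESRP1, a splicing factor of epithelia, went from 81.5 to 24.1 TPM, while MBNL1 and MBNL2, splicing factors of differentiated cells, went from 7.02 and 0.66 to 46.2 and 33.6 TPM. In all 9 of 28 splicing regulators were higher and 1 lower, with 4 lower after rescaling, when the median turned from 0.17 to -0.21.

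Chromatin and immune lists were mixed. Of 16 DNA methylation genes, 5 were higher and 2 lower, but 2 and 2 after rescaling, when the median went from 0.56 to 0.07, with TET2, a methylcytosine oxidase, at 0.891 TPM in hESCs and 35.1 in SC-β organoids. Of 16 CTCF and cohesin genes, 5 were higher and none lower in the deposited scaling, a higher share near the 32.3% over the members. These 5 were PDS5B, MAU2, STAG1, NIPBL and HDAC8. After rescaling 3 genes were higher and 2 lower, and the median turned from 0.29 to -0.20. Of 26 genes of MHC class I and antigen presentation, 9 were higher and none lower (8 and 1 after rescaling), with B2M at 53.9 and 184 TPM. Of 21 interferon-stimulated genes, 8 were higher and 5 lower (8 and 6 after rescaling), the latter including IFITM1, which is abundant in pluripotent cells, at 977 TPM in hESCs, 3.02 in PGT and 56.8 in SC-β organoids. Of 12 oncofetal genes, 3 were higher and 3 lower (2 and 4 after rescaling), HMGA2 from 53.9 to 235 and HMGA1 from 367 to 74.95 TPM, and the median turned from 0.35 to -0.11 on rescaling.

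Most housekeeping genes lay within 2-fold in the deposited scaling, and the lower counts of their lists depended on the scaling. The lower share was 12.5% for cytosolic ribosomal proteins, 14.7% for nuclear oxidative phosphorylation, 12.99% for mitochondrial ribosomal proteins, 13.8% for ribosome biogenesis, 17.9% for proteasome and 20.9% for histone genes, beside 9.44% over the members. Rescaling also took the lower genes among all members from 1084 to 2242. Of 88 cytosolic ribosomal protein genes, 11 were lower and 1 higher, but 39 were lower after rescaling. For 75 nuclear oxidative phosphorylation genes the lower count was 11 and then 41, for 77 mitochondrial ribosomal proteins 10 and 43, for 39 proteasome genes 7 and 21, for 29 ribosome biogenesis genes 4 and 18, and for 86 histone cluster genes 18 and 33. Of the 13 mitochondrially encoded genes, 4 were higher, and none after rescaling. ZNF-named zinc finger genes were higher in 224 of 531 cases and lower in 13, with 166 of the 224 led by the step to DE, and 124 and 33 after rescaling.

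Stress and channel lists were small or held many genes of low level. Of 17 heat shock proteins, 6 were lower and none higher (8 and 0 after rescaling), HSPA8 from 2395 to 864 TPM. Of 26 unfolded protein response genes, 4 were higher and 3 lower (1 and 6 after rescaling), and of 21 AP-1 and immediate-early genes 6 and 1 (5 and 4 after rescaling), with JUN at 9.77 and 66.1 TPM. Of 34 potassium and sodium channel genes, 11 were higher and 1 lower (9 and 5 after rescaling), though only 6 reached 10 TPM at either end. Of 54 clustered protocadherins, 24 were higher and none lower (18 and 0 after rescaling), with 4 at 10 TPM. Of 768 LINC-named RNAs, 88 were higher and 31 lower (63 and 40 after rescaling), deposited shares that stand below and near the background of 22.2% and 3.70%. The plot of list shares sets all 52 beside that background.

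**Figure D4:**
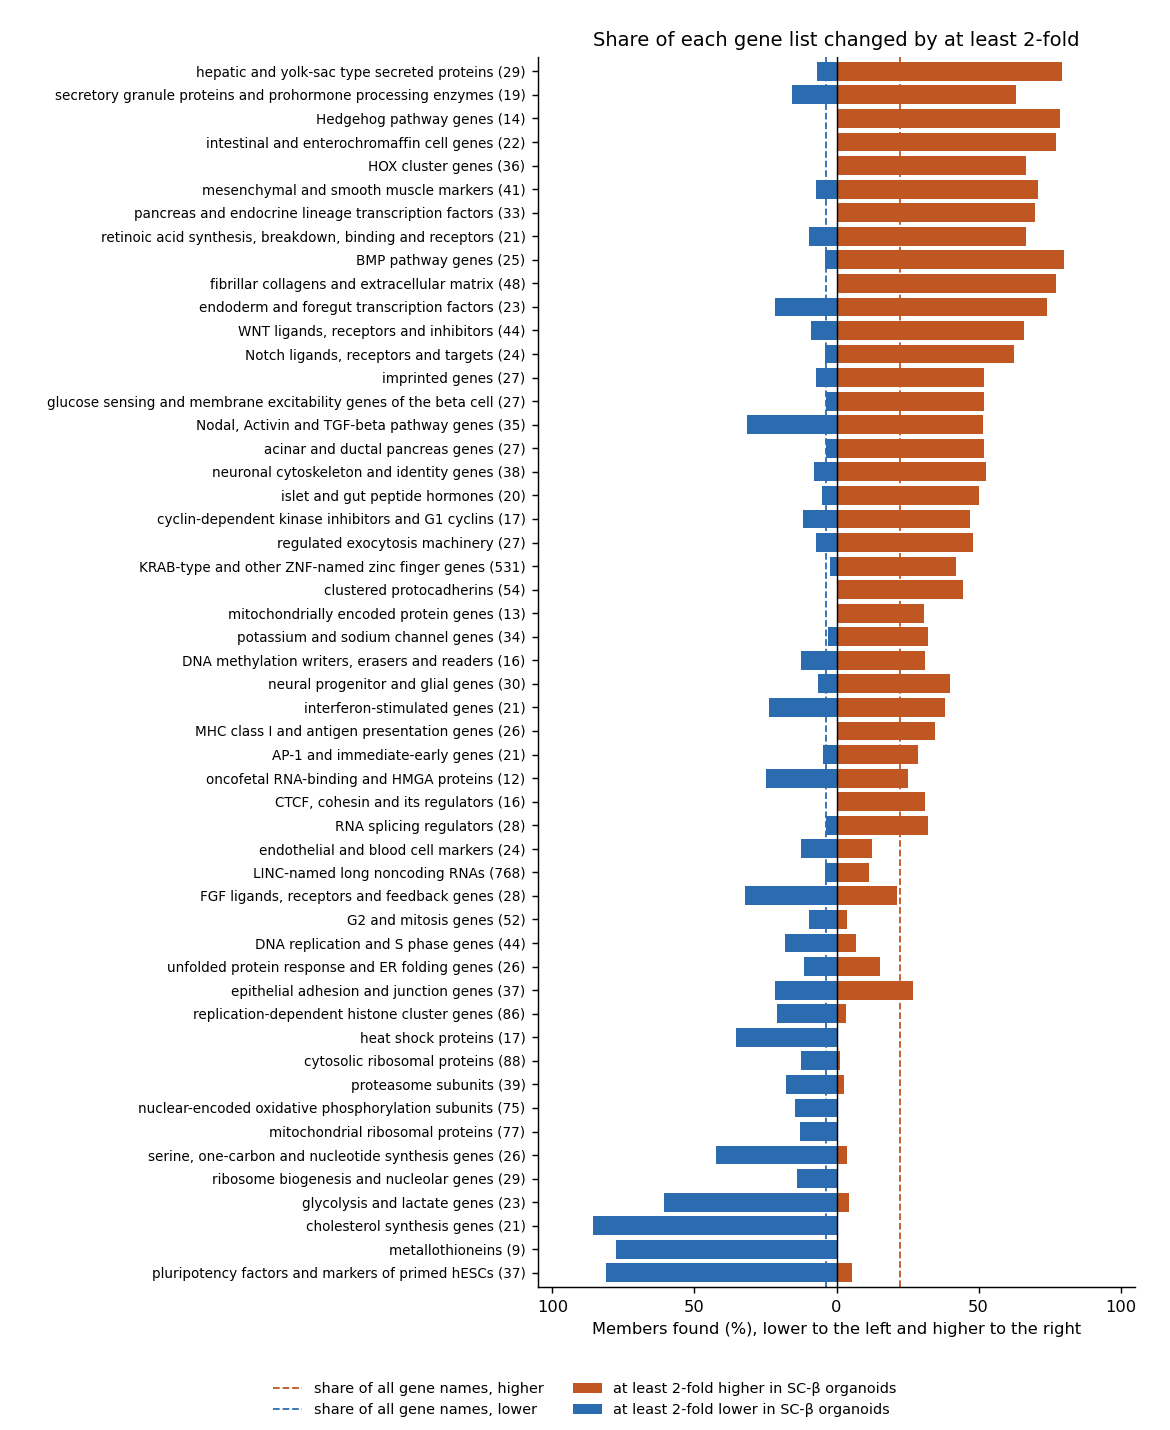
Each row is 1 of 52 gene lists with the number of genes found, ordered by median log2 ratio. Bars give the share (%) of members at least 2-fold higher (right) or lower (left) in SC-β organoids than hESCs in the deposited scaling, and dashed lines mark the shares over all names, 22.2% and 3.70%. Cholesterol synthesis, metallothionein and pluripotency genes stand to the left and hepatic, BMP and Hedgehog genes to the right.

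Some genes changed on the way and were not different between the ends. A gene counted as back at its start when the ends lay within 1.5-fold and an intermediate stage was at least 4-fold above or below both. Genes above the ends had 10 TPM or more at any of the 5 stages, so that some are low at both ends. Genes below the ends had 10 TPM or more at either end. There were 126 such genes above the ends, 75 of them with their peak in DE, 41 in PGT and 10 in PP, and 43 below, with 8 troughs in DE, 25 in PGT and 10 in PP.

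NPY, a neuropeptide, had 0.879 TPM in hESCs, 290.0 in PGT and 1.28 in SC-β organoids. VWF, known from endothelium, had 0.465 TPM in hESCs, next 191 in DE and 0.84 in SC-β organoids, and FZD8, a WNT receptor, 2.49, 66.8 and 2.49 TPM. Below the ends, LGALS1, a galectin, had 86.7 TPM in hESCs, next 7.23 in DE, 0.582 in PGT, 3.83 in PP, then 95.4 in SC-β organoids. GAP43, a protein of growing axons, had 33.3, 0.0733 and 36.6 TPM in hESCs, PGT and SC-β organoids, and SYT1, a calcium sensor of vesicle release, 43.8, 1.79 and 40.9 TPM. A comparison of the ends alone would list none of these genes as changed.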

How the data were processed

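Total RNA was taken with Trizol from H9 hESCs and the later stages. The methods name RiboMinus depletion and the labels a TruSeq Stranded mRNA kit, and reads were paired-end. According to the submitters' processing notes, HISAT2 2.2.0, StringTie 2.1.6 and hg38 were used, and the annotation is not given in the sources used here. The authors deposited TPM values as 1 mean per stage over 2 replicates, in 50451 entries. The depth per sample is therefore unknown here, and no interval, test or replicate check can be given.

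Entries with the same name were summed to 49085 names, and log2 ratios were taken after adding 1 TPM, which understates the change of low genes. Genes at 10 TPM or more at either end were described, with a limit of 2-fold. A leading step was the step with the largest change in the direction of the whole. For rescaling, each stage was set to the same median against the geometric mean over stages, using names at 1 TPM or more at all 5.

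Named genes were the 25 with the largest ratio in each direction, the 10 most abundant at each end and the 10 with the largest excursion among genes back at their start in each direction, leaving out clone names, structural RNAs and mitochondrially encoded genes, and in each list members of high level or large ratio or needed for a role. The members and all 52 lists were chosen with earlier results of these data known. Alternatives were a pseudocount of 0.1 TPM, the rescaling, totals without structural and mitochondrial RNAs, the highest of several entries instead of their sum, other limits on level, a 4-fold limit, an 8-fold excursion, and the undefined column PH placed before SC-β organoids. Promoters came from RefSeq (GRCh38.p14), 27305 genes in 35116 windows. Python 3.11.15, numpy 2.4.6, pandas 2.3.3 and matplotlib 3.10.9 were used, and the scripts were checked on simulated data. Some list members are counted but not reported by name here.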

Additional observations from a re-analysis of the deposited data

Results flagged for a closer look

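A further column of the table, PH, is not defined in the sources used here and entered no comparison above. It held 32 names at 10 TPM or more that were under 1 TPM in both hESCs and SC-β organoids, which is why it is listed here. The names with the highest PH level were LINC00461 (263.7 TPM), a noncoding RNA, SKOR1 (57.1 TPM), LHX5 (43.4 TPM) and NHLH2 (41.3 TPM), transcription factors of neurons, and NCAN (40.9 TPM), a proteoglycan of the nervous system.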

How the results depend on the processing

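No paired analysis was possible because the deposited columns are means over the replicates, and leaving out a replicate was not possible for the same reason. The ratios of low genes depend on the value added, and no result here has an error.

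With stages rescaled to equal medians there were 2214 higher and 2242 lower genes, of which 973 and 621 of the higher were led by the step to DE and the last step, and 1458 and 300.0 of the lower. List medians then were 0.87 for hormones, 0.77 for glucose sensing, 0.66 for acinar and ductal genes, 0.97 for neuronal, -1.18 for one-carbon, -1.21 for ribosome biogenesis, 0.89 for imprinted, 0.91 for Nodal and TGF-β, -1.05 for oxidative phosphorylation, -1.07 for mitochondrial ribosomal and -1.01 for proteasome genes. Without structural and mitochondrial RNAs in the totals, DE to PGT led 477 and PGT to PP 597 of the higher genes, the last step 198 of the lower, 67 genes came back from below, and the exocytosis median was 1.17.

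At 1 TPM, and equally with no limit on level, 10880 genes were higher and 1816 lower, since many low names pass 2-fold, with 4775, 612, 776 and 4717 of the higher and 919, 514, 215 and 168 of the lower led by the 4 steps in order, and 229 and 68 back from above and below. A 4-fold limit left 1504 and 385, and an 8-fold excursion 62 and 13. With PH before SC-β organoids, PGT to PP led 84 of the lower genes and the steps after PP 358. With 0.1 TPM added, medians were 1.07 for kinase inhibitors, 1.44 for exocytosis, 1.64 for neural progenitor, 1.196 for channel, 1.02 for ZNF and 1.39 for protocadherin genes.

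Among list members at 10 TPM only, medians were 1.27 for neural progenitor, 0.98 for Nodal and TGF-β and 1.68 for protocadherin genes, and turned to -3.16 for endothelial and blood and -1.37 for interferon genes. Leaving out clone names, structural and mitochondrial RNAs, chosen after seeing the data, gave 3340 higher and 926 lower genes. Of 904 ratios of 226 single genes under 4 alternatives, 885 kept their side of 2-fold, 5 came within it, 14 moved past it and none changed sign. Taking the highest entry of a repeated name left all 226 on their side. These genes do not stand for all members, whose higher genes went from 3712 to 2214 on rescaling. The causes were not tested.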

Other observations

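Some genes known from stratified squamous epithelium were at 10 TPM or more in SC-β organoids and under 1 TPM at the 4 earlier stages. Their low level at earlier stages follows from this filter, and KRT17 still had 0.987 TPM in PGT. These genes were picked after their values were seen and are values only. Of 71 names at 10 TPM or more in SC-β organoids and under 1 TPM at the 4 earlier stages, KRT4 (351 TPM), KRT17 (113 TPM), KRT13 (109.9 TPM) and KRT1 (49.9 TPM) are keratins of such epithelia. S100A8 (106 TPM), SCEL (48.1 TPM), SPRR3 (21.0 TPM), SPRR1B (16.2 TPM), SERPINB2 (11.9 TPM) and CSTA (10.8 TPM), which encode calcium-binding proteins, precursors of the cornified envelope and protease inhibitors, were on the same list. Of 43 keratin names, 10 reached 10 TPM at any of the 5 stages, and KRT5, KRT14 and KRT10 were not among these 10.

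The same list of 71 names held TYRP1 (49.1 TPM) and DCT (20.8 TPM), enzymes of melanin synthesis, MUC16 (41.6 TPM), a mucin of wet epithelia, EBF1 (61.8 TPM), a transcription factor of B cells and mesenchyme, and CORIN (39.1 TPM), a protease that activates natriuretic peptide. In the other direction, 17 names were at 10 TPM or more in hESCs and under 1 TPM at the 4 later stages, among them HHLA1 (64.6 TPM), AADACL3 (30.3 TPM) and DKK4 (20.4 TPM), a WNT antagonist.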
